A study of Mus musculus with 12 samples.

Results

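Germ cell RNA regulators are proteins that bind, process or guard RNA in germ cells, or that set up the germ line. The 10 genes described here are Dazl, Ddx4, Piwil2, Mael, Tdrd1, Nanos3, Dnd1, Taf7l, Asz1 and Prdm1, each read by all probes that carried its symbol as gene name on the array. This gave 13 probes of the 41174 on the array, or 10 of its 27962 gene names. The label holds for most of the genes but not for all: Taf7l is a germ cell form of a general transcription factor subunit and Prdm1 is a transcription factor, neither of them an RNA-binding protein.

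The study depleted either catalytic subunit of the Tip60-p400 complex in E14 mouse embryonic stem cells, a cultured line from the early embryo, and asked what this does to gene expression. Cells in 1 well of a 6-well dish received 0.33 ng/µl of esiRNA (short interfering RNAs made enzymatically from a longer double-stranded RNA) with a lipofection reagent for 72 hr. The esiRNA was against p400 (gene Ep400), against Tip60 (gene Kat5, named Htatip on the array), or against EGFP, a jellyfish protein with no gene in mouse cells, as the control. RNA of 4 p400 knockdowns was hybridised against EGFP control RNA on 4 two-colour arrays, with the p400 RNA in Cy5 on replicates 1 and 3 and in Cy3 on replicates 2 and 4. RNA of 4 Tip60 knockdowns and 4 EGFP controls was hybridised on 8 single-colour arrays, and Tip60 replicate 3 was left out of the comparison because the submitters describe its intensity profile as an outlier. The design text calls the replicates biological. Whether the EGFP RNA on the two-colour arrays came from the same cultures as that on the single-colour arrays is not given in the sources used here.

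As background, Dazl binds the 3′ ends of messenger RNAs and promotes their translation in germ cells. Ddx4, Mael, Tdrd1, Asz1 and the Argonaute protein Piwil2 act in the piRNA pathway, in which small RNAs guide the silencing of transposons in the male germ line. Nanos3 and Dnd1 protect primordial germ cells, and Prdm1 directs the formation of these cells in the embryo. In embryonic stem cells many germ cell genes are held low by DNA methylation and by a Polycomb complex that contains Max and E2F6, while the Tip60-p400 complex acetylates histones through Tip60 and exchanges histone variants through p400.

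Promoters were examined because several of the genes were higher after p400 knockdown. RefSeq promoters (build GRCm38.p6) were matched by symbol for 8 of the 10 genes, and the 250 bases before each start were searched on both strands for CACGTG, the E-box bound by Max and its partners, and TCCCGC, a core of E2F sites. Of the 32851 promoters of this length, 6.02% held CACGTG, 16.9% held TCCCGC and 1.45% held both, and the motifs share no overlap in the promoters below. CACGTG was found in 4 of the 8 genes, Ddx4, Mael, Tdrd1 and Taf7l, and TCCCGC in 2, Ddx4 and Mael. These counts are by gene over any of its annotated starts (10 promoters in all), while the shares above are of single promoters. Ddx4 was called in neither knockdown, and Mael, Tdrd1 and Taf7l only after p400 knockdown (below). The sequences show these 4 and Dazl, the gene with the largest change, with capitals marking the motif on either strand.

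Dazl promoter, chr17:50293621-50293870, minus strand: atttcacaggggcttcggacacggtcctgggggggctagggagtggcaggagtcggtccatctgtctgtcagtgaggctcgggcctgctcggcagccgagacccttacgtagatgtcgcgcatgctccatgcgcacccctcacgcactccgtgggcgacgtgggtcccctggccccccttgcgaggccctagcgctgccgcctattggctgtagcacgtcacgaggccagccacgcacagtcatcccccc
Ddx4 promoter, chr13:112652311-112652560, minus strand: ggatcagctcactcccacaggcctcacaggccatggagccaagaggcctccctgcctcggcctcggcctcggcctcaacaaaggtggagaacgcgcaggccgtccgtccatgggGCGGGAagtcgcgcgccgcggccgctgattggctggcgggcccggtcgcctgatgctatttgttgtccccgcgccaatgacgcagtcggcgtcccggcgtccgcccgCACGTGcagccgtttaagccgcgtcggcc
Mael promoter, chr1:166238745-166238994, minus strand: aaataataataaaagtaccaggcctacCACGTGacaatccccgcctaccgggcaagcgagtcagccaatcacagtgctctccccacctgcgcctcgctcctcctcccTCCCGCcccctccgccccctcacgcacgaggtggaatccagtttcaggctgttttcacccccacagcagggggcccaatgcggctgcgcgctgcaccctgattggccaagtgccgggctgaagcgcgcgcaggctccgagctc
Tdrd1 promoter, chr19:56825959-56826208, plus strand: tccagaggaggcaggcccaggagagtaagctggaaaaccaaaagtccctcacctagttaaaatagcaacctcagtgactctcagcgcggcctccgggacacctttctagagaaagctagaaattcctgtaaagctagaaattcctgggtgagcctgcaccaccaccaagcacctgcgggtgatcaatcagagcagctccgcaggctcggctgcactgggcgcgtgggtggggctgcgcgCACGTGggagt
Taf7l promoter, chrX:134476491-134476740, minus strand: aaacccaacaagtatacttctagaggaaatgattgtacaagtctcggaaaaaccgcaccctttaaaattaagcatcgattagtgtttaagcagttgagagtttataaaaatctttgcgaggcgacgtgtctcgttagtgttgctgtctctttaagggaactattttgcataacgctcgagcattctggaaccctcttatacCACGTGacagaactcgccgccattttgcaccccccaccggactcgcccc

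In Mael the E-box began 223 bases before the start, in Taf7l 49, in Ddx4 29 and in the first of the 3 annotated Tdrd1 starts 11. Dazl held neither motif in this window. Its 250 bases held 20 CpG dinucleotides, where Ddx4 held 31, Mael 18, Taf7l 14, Tdrd1 11 and 22 at its first and second start, and the median over all promoters was 6. Dazl lay within the range of these other genes. Asz1 and Prdm1 held 15 each, while Nanos3 and the third Tdrd1 start held 3 each, below that median. A match of letters does not show a bound factor, and no such match says only that these letters were not in the window.

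The p400 knockdown was followed by higher Dazl and modestly higher Mael, Tdrd1, Taf7l and Piwil2, and by lower Prdm1 and Dnd1. Of the 13 probes, 12 for all 10 genes were well above background on at least 3 arrays in either RNA and were tested. Of these, 7 probes of 6 genes were higher and 2 probes of 2 genes were lower at an adjusted p below 0.05 by limma (Benjamini-Hochberg over the 27952 probes tested). Over all probes tested, 33.1% were called, 18.1% as higher and 15.1% as lower. One of the 7, Asz1, passed the filter only through the knockdown RNA, and among the 11 probes well above background on at least 3 arrays in EGFP RNA 6 probes of 5 genes were higher. The median log2 fold change was 0.32 over the 12 probes and -0.0048 over all probes. The count was 4 without replicate 2 and 5 without replicate 3, where 16.5% and 25.8% of all probes were called. It was 7, with 4 higher and 3 lower, with array median centring in place of loess, where 14% of all probes were called higher and 34.3% lower. It was 6, with 5 higher and 1 lower, with arrays scaled to a common spread, where 8.86% and 3.34% were called.

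**Figure D1:**
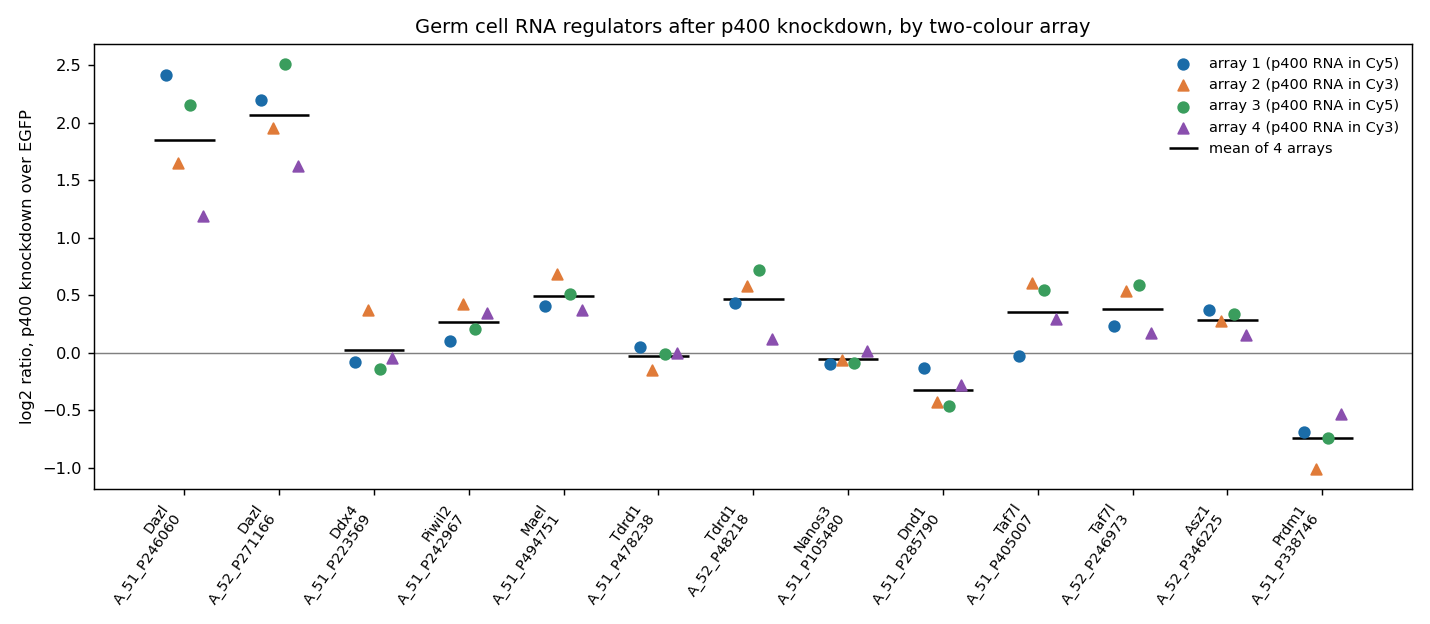
The vertical axis gives the log2 ratio of p400 knockdown over EGFP on each of 4 two-colour arrays for each of the 13 probes, with circles for p400 RNA in Cy5, triangles for p400 RNA in Cy3 and a line at the mean. Both Dazl probes lie above 1 on every array and Prdm1 lies below 0 on every array, while Ddx4 and Nanos3 lie around 0.

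Dazl, the translational regulator, had the largest change of the 13 probes. On replicates 1 to 4 the log2 ratio of A_51_P246060 was 2.42, 1.65, 2.15 and 1.19, and that of A_52_P271166 was 2.20, 1.95, 2.51 and 1.62. The arrays with p400 RNA in Cy5 gave the higher values for both probes, and every array was above 0. The model with a dye term put the first probe at 1.85 ± 0.10 (SE, n = 4; 3.61-fold, adjusted p = 0.000356 by limma) and the second at 2.07 ± 0.09 (4.20-fold, adjusted p = 0.000185 by limma). For comparison, 2.36% of all probes were called at least 2-fold higher. The first probe spans 147 bases of chr17:48435590-48435736 and the second lies at chr17:48427556-48427615 (build mm7, per the file headers), so the 2 probes read separate stretches of the transcript.

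The piRNA pathway genes moved by less. Mael, a nuage component needed for transposon silencing, had log2 ratios of 0.41, 0.68, 0.51 and 0.38, all above 0, and rose by 0.49 ± 0.08 (SE, n = 4; 1.41-fold, adjusted p = 0.00617 by limma). Under array median centring its value was 0.18, which was not called. Tdrd1, a Tudor domain scaffold that binds Piwi proteins, gave 0.43, 0.58, 0.72 and 0.12 on A_52_P48218 and rose by 0.46 ± 0.10 (1.38-fold, adjusted p = 0.0160 by limma). It lost the call without replicate 2 or without replicate 3, at values of 0.35 and 0.39. Its other probe, A_51_P478238, was well above background on 2 of 4 arrays in each RNA and was not tested.

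Piwil2, the Argonaute protein of the pathway, had ratios of 0.10, 0.43, 0.21 and 0.35 and rose by 0.27 ± 0.07 (SE, n = 4; 1.21-fold, adjusted p = 0.0243 by limma). Its call was lost under 6 of 13 alternatives, without replicates 2, 3 or 4 among them. Asz1, an ankyrin-repeat protein of the same pathway, had ratios of 0.37, 0.27, 0.34 and 0.16 and was well above background on 4 arrays in p400 RNA but on 2 of 4 in EGFP RNA, so it was tested only because of its p400 signal. Its value was 0.29 ± 0.07 (adjusted p = 0.0198 by limma), 0.77 with normexp at offset 0 and 1.73 with the deposited LogRatio, so its size is not settled. The call was lost without replicate 2, without replicate 4 and with arrays scaled to a common spread. Ddx4, the Vasa RNA helicase, had ratios of -0.08, 0.37, -0.14 and -0.05, with replicate 2 alone above 0, and 0.03 ± 0.09 (adjusted p = 0.846 by limma). With array median centring, where 34.3% of all probes were called lower, it was -0.27 and called lower (adjusted p = 0.0471).

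The genes outside the piRNA pathway went in both directions. Taf7l, a germ cell paralog of a TFIID subunit, gave 0.24, 0.54, 0.59 and 0.17 on A_52_P246973 and rose by 0.38 ± 0.10 (SE, n = 4; 1.31-fold, adjusted p = 0.0263 by limma). The call was lost without replicate 2 or replicate 3, at 0.29 and 0.30, and with array median centring, at 0.19. On its other probe, A_51_P405007, replicate 1 was at -0.03 and the others between 0.29 and 0.61, and the fold change of 0.36 ± 0.11 missed the threshold (adjusted p = 0.0533). Both Taf7l probes had values of about the same size on either side of the threshold. Nanos3, the RNA-binding guardian of primordial germ cells, lay between -0.10 and 0.01 and had a value of -0.06 ± 0.06 (adjusted p = 0.531).

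Prdm1 fell on every array, with log2 ratios of -0.69, -1.01, -0.74 and -0.53. Its fold change was -0.74 ± 0.09 (SE, n = 4; adjusted p = 0.00323 by limma), and it kept the call under all 13 alternatives. Over all probes, 3.48% were called at or below -0.5. Dnd1, which shields messenger RNAs from microRNAs in primordial germ cells, had ratios of -0.13, -0.43, -0.46 and -0.28 and fell by 0.32 ± 0.08 on the log2 scale (adjusted p = 0.0265 by limma). Its call was lost without replicates 2, 3 or 4 and under 2 further settings. Of the 12 probes tested, 7 were above EGFP on all 4 arrays and 2 were below on all 4, where 26.3% and 25.6% of all probes lay above or below on all 4 arrays. The 7 include Asz1, which was tested only through the knockdown RNA.

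The Tip60 knockdown was followed by higher Dazl and Piwil2 and lower Prdm1 and Dnd1, with no call for the other genes tested. Levels on these arrays are log2 of the processed signal relative to the 75th percentile of each array. Of the 13 probes, 11 for 9 genes were tested, and 3 probes of 2 genes were higher and 2 probes of 2 genes were lower at an adjusted p below 0.05 by limma. Over the 25303 probes tested, 22.7% were called, 13.2% higher and 9.48% lower. The median log2 fold change was 0.15 over the 11 probes and 0.0014 over all. With the submitters' deposited normalised values the count was 3, with 2 higher and 1 lower, where 8.66% and 10.6% of all probes were called. With each array's median for scaling it was 4, with 2 higher and 2 lower. With the 75th percentile taken over probes well above background on all arrays it was 4, with 3 higher and 1 lower. There 14.3% of all probes were called higher and 7.4% lower. The scaling on the median lowers every probe measured on all arrays by the same amount and moved the median over all probes to -0.21, with 7.41% of all probes called higher and 29.4% lower.

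**Figure D2:**
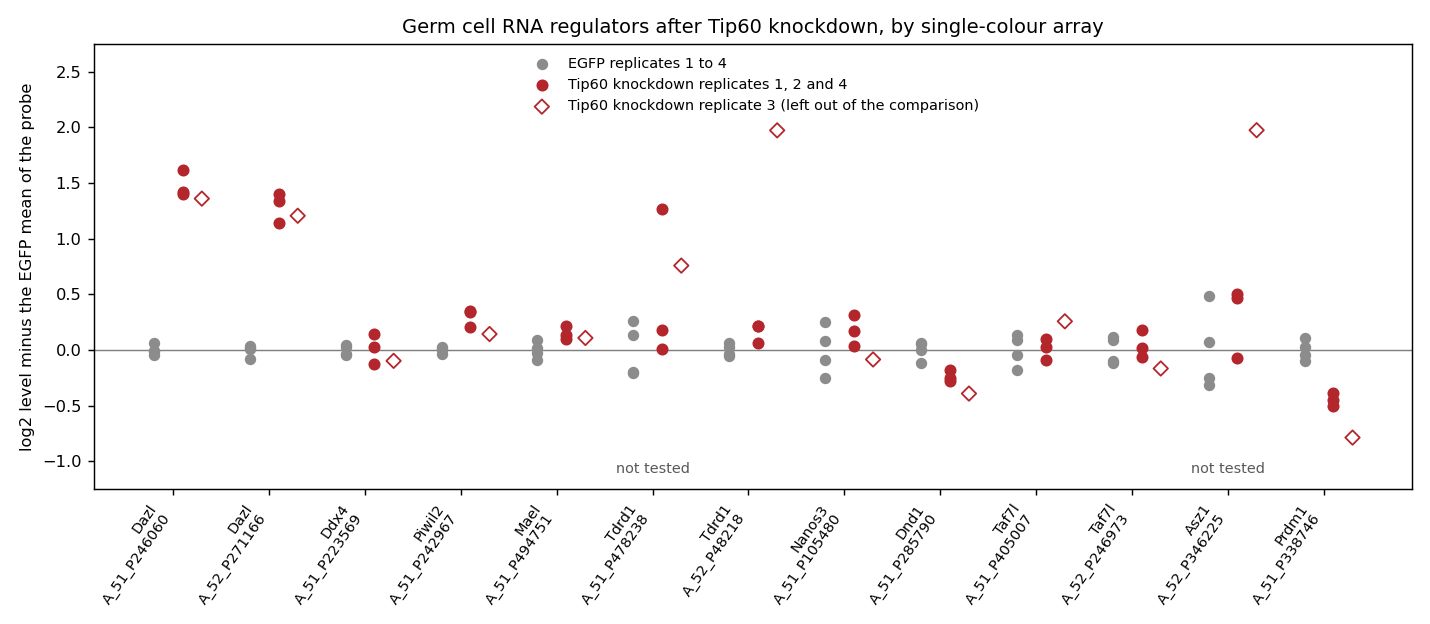
The vertical axis gives each array's log2 level minus the mean of the 4 EGFP arrays for that probe, with EGFP in grey, Tip60 replicates 1, 2 and 4 in red and Tip60 replicate 3, left out of the comparison, as open diamonds. Both Dazl probes lie about 1.1 to 1.6 above the EGFP mean on the Tip60 arrays, and Tdrd1 A_52_P48218 stands apart on replicate 3, as does the Asz1 probe, which was not well above background on any of these arrays.

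Dazl was well above background on all 4 EGFP arrays and higher in every Tip60 culture. On A_51_P246060 its level in EGFP replicates 1 to 4 was -1.65, -1.57, -1.68 and -1.65, and in Tip60 replicates 1, 2 and 4 it was -0.22, -0.24 and -0.02, so that the groups did not overlap. Replicate 3 was at -0.28. The difference was 1.48 ± 0.07 (SE, n = 3 and 4; 2.79-fold, adjusted p = 1.19e-05 by limma). On A_52_P271166 EGFP was at -1.04, -1.06, -1.16 and -1.07 and Tip60 at 0.26, 0.06 and 0.32, a difference of 1.30 ± 0.08 (2.46-fold, adjusted p = 3.45e-05 by limma). At least 2-fold rises were called for 3.11% of all probes. Slide 2 held 2 arrays of each group, and within it the probes gave 1.53 and 1.29. With the slide as a block they gave 1.48 and 1.31.

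Among the piRNA genes, Piwil2 was called and Mael and Tdrd1 were not. Piwil2 was at -1.92, -1.88, -1.85 and -1.87 in EGFP cells and at -1.53, -1.54 and -1.67 in Tip60 cells, with no overlap, and rose by 0.30 ± 0.06 (SE, n = 3 and 4; 1.23-fold, adjusted p = 0.00945 by limma). Within slide 2 the difference was 0.28 and not called, and with the slide as a block it was 0.31 and called. With the array median for scaling, which lowers all probes alike, it was 0.09 and not called. The call was also lost with quantile normalisation (0.16), the submitters' deposited normalised values (0.17) and replicate number as a block (0.31). Piwil2 thus lost the call under 5 of 19 alternatives. Mael was at 2.60, 2.67, 2.49 and 2.55 in EGFP cells and at 2.71, 2.68 and 2.79 in Tip60 cells, a difference of 0.15 ± 0.06 (adjusted p = 0.140).

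Tdrd1 on A_52_P48218 was at -0.90, -0.87, -0.98 and -0.96 in EGFP cells and at -0.71, -0.87 and -0.71 in Tip60 cells, a difference of 0.17 ± 0.06 (adjusted p = 0.107 by limma). Its highest EGFP value lay just below its lowest Tip60 value, and the array left out, replicate 3, was at 1.05. The array median for scaling put Mael and Tdrd1 at -0.06 and -0.04, above the -0.21 of the median probe in that scaling. Tdrd1 A_51_P478238 was well above background on 1 of 3 Tip60 arrays and on 0 of 4 EGFP arrays, and Asz1 on none of either group, so neither was tested. Ddx4 was between 1.45 and 1.54 in EGFP cells and between 1.37 and 1.64 in Tip60 cells, a difference of 0.02 ± 0.07 (adjusted p = 0.898).

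Prdm1, with EGFP levels of -1.53, -1.44, -1.65 and -1.60, was at -2.01, -2.06 and -1.94 in Tip60 cells, below all EGFP arrays, and at -2.34 on replicate 3. Its difference was -0.45 ± 0.07 (SE, n = 3 and 4; adjusted p = 0.00390 by limma), and it was -0.41 within slide 2, where it was not called, and -0.44 with the slide as a block. Over all probes, 3.47% were called at or below -0.4. Dnd1 was at 1.11, 1.18, 1.16 and 0.995 in EGFP cells and at 0.86, 0.94 and 0.84 in Tip60 cells, without overlap, and fell by 0.23 ± 0.06 on the log2 scale (adjusted p = 0.0399 by limma). It was -0.25 and not called within slide 2, -0.24 and called with the slide as a block, and lost the call under 11 of 19 alternatives.

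Nanos3 ranged from -3.75 to -3.26 in EGFP cells and from -3.47 to -3.19 in Tip60 cells, and the difference of 0.17 ± 0.13 was not called (adjusted p = 0.373). The Taf7l probes differed by 0.05 ± 0.09 and 0.01 ± 0.09 (adjusted p = 0.745 and 0.941), with overlapping groups. Of the 11 probes tested, 5 lay above all EGFP arrays in Tip60 cells and 2 below, where 18% and 16.4% of all probes did.

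The difference between the 2 knockdowns was called for 1 of the 11 probes tested in both, where 3.45% of all probes were called. Dazl A_52_P271166 was higher after p400 than after Tip60 knockdown by 0.77 (95% interval 0.49 to 1.06, adjusted p = 0.0359 over the 25136 probes tested in both). The other Dazl probe differed by 0.37 (0.08 to 0.67, adjusted p = 0.132). Mael differed by 0.34 (0.10 to 0.59, adjusted p = 0.111). The Taf7l probes differed by 0.34 and 0.34 and Tdrd1 by 0.30, none of them called. For Piwil2 the difference was -0.03 (-0.24 to 0.18), for Dnd1 -0.09 (-0.34 to 0.16) and for Prdm1 -0.30 (-0.58 to -0.02). The intervals are not adjusted for the number of probes. With degrees of freedom combined from both fits (Satterthwaite) the count was 2, where 13.2% of all probes were called. The 2 kinds of array differ in labelling and normalisation, and their part in these differences was not tested.

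**Figure D3:**
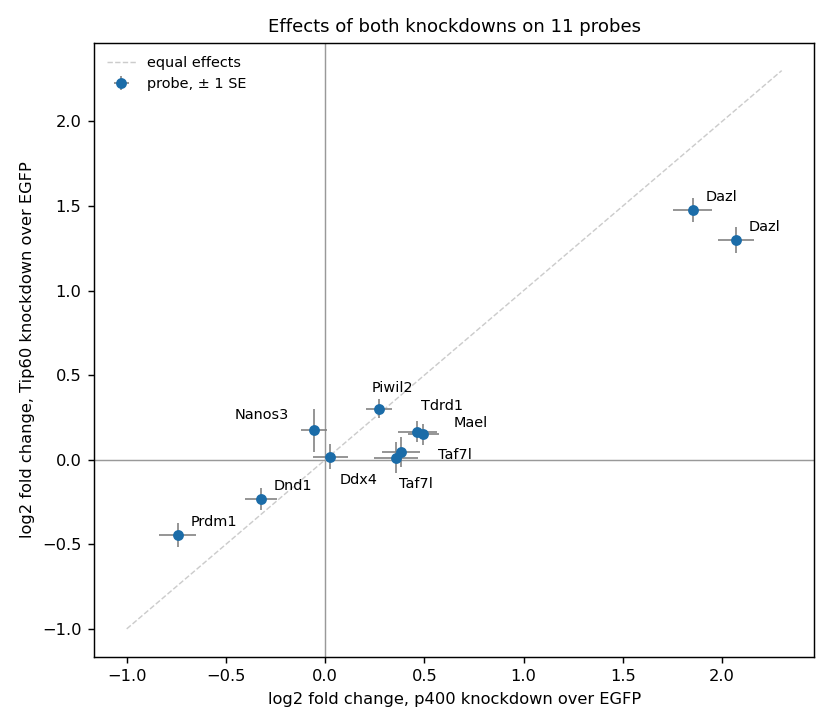
The log2 fold change over EGFP after p400 knockdown (horizontal) is plotted against that after Tip60 knockdown (vertical) for the 11 probes tested in both, with bars of 1 SE and a dashed line of equal effects. Both Dazl probes lie at the upper right, Prdm1 and Dnd1 at the lower left, and Ddx4 near the origin.

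The other germ cell genes were taken from a list of 41, of which 37 were on the array with 52 probes. After p400 knockdown 45 probes were tested, and 17 were higher and 5 lower, with a median of 0.16, where 18.1% and 15.1% of all probes were called. With array median centring, where 14% of all probes were called higher and 34.3% lower, the split was 13 higher and 11 lower. With arrays scaled to a common spread it was 8 and 1, where 8.86% and 3.34% of all probes were called. Without replicate 2 it was 10 and 4, where 9.64% and 6.87% were called. In the main fit, the only one counted by class, the piRNA pathway genes held 13 of the 17 rises, with no fall among 25 probes tested. The 13 were probes of 11 genes. The 3 largest were Gtsf1 (named 1700006H03Rik on the array), a zinc finger protein of the piRNA pathway, at 1.35 ± 0.07 (SE, n = 4; adjusted p = 0.000356 by limma), Tex19.1, a transposon regulator, at 1.28 ± 0.09 and Stk31, a testis kinase-like protein, at 0.99 ± 0.10. The largest falls were Tfap2c, a transcription factor of primordial germ cell specification, at -0.69 ± 0.10, Patl2, an oocyte translation repressor, at -0.61 ± 0.07, and the RNA-binding protein Elavl2 (A_52_P664899) at -0.58 ± 0.07.

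After Tip60 knockdown 44 probes of the list were tested, and 14 were higher and 4 lower, with a median of 0.14, where 13.2% and 9.48% of all probes were called. With the array median for scaling, where 7.41% of all probes were called higher and 29.4% lower, the split was 8 higher and 11 lower. With quantile normalisation or the deposited normalised values it was 9 and 5. There 8.82% or 8.66% of all probes were called higher and 10.9% or 10.6% lower. Within slide 2 it was 5 and 1, where 6.61% and 2.24% of all probes were called. Without Tip60 replicate 4 it was 9 and 2, where 10.5% and 5.28% were called. In the piRNA pathway 9 of 24 probes were higher in the main fit and 1 was lower, and the 9 were probes of 7 genes. The lower one, Piwil4 A_52_P14778, was called higher after p400 knockdown, at 0.38 (adjusted p = 0.0396 by limma). After Tip60 knockdown it was at -0.30 (adjusted p = 0.0470 by limma). The largest rises were Nobox, an oocyte transcription factor, at 1.20 ± 0.31 (SE, n = 3 and 4; adjusted p = 0.0308 by limma), the helicase Tdrd9 at 1.17 ± 0.14 and Henmt1, which methylates the 3′ ends of piRNAs, at 0.93 ± 0.15. All 3 were dim, with EGFP means of -5.31, -4.91 and -5.25, and none was well above background on Tip60 replicate 3. Nobox and Henmt1 were well above background on 3 of 4 EGFP arrays. Nobox spanned -4.69 to -3.31 over the Tip60 arrays compared, and a further Henmt1 probe was too dim to be tested. The largest falls were Tfap2c at -0.56 ± 0.07, Cpeb1, a translational regulator of oocyte messages, at -0.43 ± 0.07, and Elavl2 (A_51_P134835) at -0.32 ± 0.08. The Elavl2 probes differ, since A_52_P664899 was at -0.18 after Tip60 knockdown, with overlapping groups and no call (adjusted p = 0.248 by limma).

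**Figure D4:**
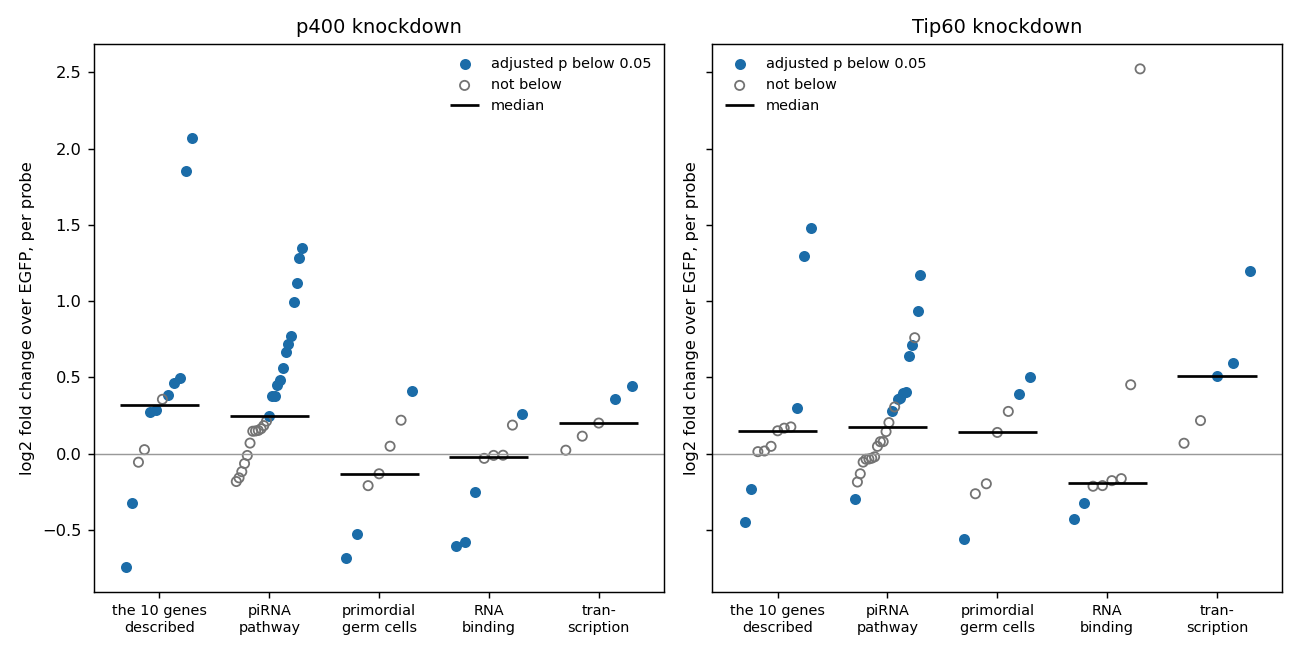
The log2 fold change over EGFP is plotted for each probe of the 10 genes and of 4 classes of other germ cell genes, filled where the adjusted p was below 0.05, with a line at the median of each class. The piRNA pathway genes reach 1.35 after p400 and 1.17 after Tip60 knockdown.

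By a fixed rule, the 5 genes whose pattern lay nearest to Dazl A_52_P271166 were sought among 22076 probes, from the 4 p400 ratios and the 7 single-colour levels relative to the EGFP mean (11 values). The smallest Euclidean distance, in log2 units, was 0.60 for C130073F10Rik, followed by 0.68 for Lonrf3, 0.73 for Pdlim3, 0.78 for Lrrn4 and 0.80 for Id3, an inhibitor of basic helix-loop-helix factors. Their log2 fold changes were between 1.996 and 2.17 after p400 and between 1.01 and 1.23 after Tip60 knockdown, which the choice of the genes on these values fixes.

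Between 26067 and 29023 probes were well above background in each channel of the p400 arrays, and between 20906, on Tip60 replicate 3, and 28373 on the single-colour arrays. The targeted genes checked the labels. Tip60 (Kat5) was between 1.15 and 1.39 in EGFP cells and between -0.30 and -0.19 in Tip60 replicates 1, 2 and 4, a change of -1.49 ± 0.07, and it changed by -0.43 ± 0.08 after p400 knockdown. For p400 (Ep400), A_51_P380165 fell by 0.58 and was below 0 on all 4 p400 arrays. A_52_P475229 fell by 0.72, with log2 ratios of 0.06, -1.12, -0.57 and -1.24, so replicate 1 did not show the fall on this probe. A_52_P670950, well above background on all 4 arrays, had 0.22 (adjusted p = 0.0787 by limma) and did not fall, and A_51_P508853 was not well above background on any p400 array. Each cell type marker was counted by the probe of its gene that was brightest on the single-colour arrays. Markers of 2-cell embryos, 4 of 4 well above background, were higher in both knockdowns (4 of 4 called in each), and their summed level relative to the 75th percentile was 28.8 to 31.6 in EGFP cells and 165.0 to 179.7 in Tip60 cells. Their mean log2 ratio was 3.77 to 5.02 over the p400 arrays. The 7 stem cell markers were all well above background, with summed levels of 232.0 to 263.4 and 236.0 to 241.2. The 2 called lower were Sox2 and Esrrb after p400 and Sox2 and Klf4 after Tip60 knockdown, while 1, Tdgf1, rose by 0.38 after Tip60 knockdown. A dimmer Esrrb probe, A_52_P628212, was also called lower after Tip60 knockdown, at -0.52 (adjusted p = 0.00504 by limma). Endoderm markers were higher in 4 of 5 after p400 and 4 of 4 after Tip60 knockdown, summed 0.51 to 0.53 and 0.88 to 0.93. Afp was not well above background in EGFP cells and was tested only through the knockdown RNA, and among the markers bright in EGFP RNA 3 of 4 and 3 of 3 were higher. Of the feeder fibroblast markers, 3 of 4 tested were higher after p400 and 1 of 4 after Tip60 knockdown. Their summed levels were 2.94 to 3.15 in EGFP and 4.36 to 4.60 in Tip60 cells. The 3 called after p400 knockdown were Col1a1, Col1a2 and Thy1, at 0.80, 0.49 and 1.43, while Col3a1 was at -0.07. A dimmer Col1a1 probe, A_51_P377094, was at 0.11 after p400 knockdown and not called (adjusted p = 0.323 by limma). The 1 called after Tip60 knockdown was Thy1, at 1.25, while Col1a1, Col1a2 and Col3a1 were at -0.11, -0.16 and 0.07 and not called. Dcn, Postn and Lum were not well above background on the single-colour EGFP arrays. Of the markers of gonadal somatic cells, 3 of 4 and 1 of 3 were higher (2 of 3 and 1 of 3 among those bright in EGFP RNA). Their summed levels were 0.61 to 0.77 and 0.71 to 0.95, and Sox9 and Amh were not well above background on the single-colour EGFP arrays. The Sox9 probe counted after p400 knockdown, A_52_P577484, was at 0.28 and tested only through the knockdown RNA. Another Sox9 probe, A_51_P451606, was well above background in EGFP RNA on all 4 p400 arrays. It was at 0.0036 after p400 knockdown (adjusted p = 0.973 by limma). Trophectoderm markers were higher in 3 of 5 and 2 of 5 (2 of 3 and 2 of 5 among those bright in EGFP RNA), and of the mesoderm and ectoderm markers 1 of 3 was lower in each knockdown. The part of these cell types in the changes of the 10 genes was not tested, and in bulk RNA more cells of a type and more RNA per cell cannot be told apart.

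**Figure D5:**
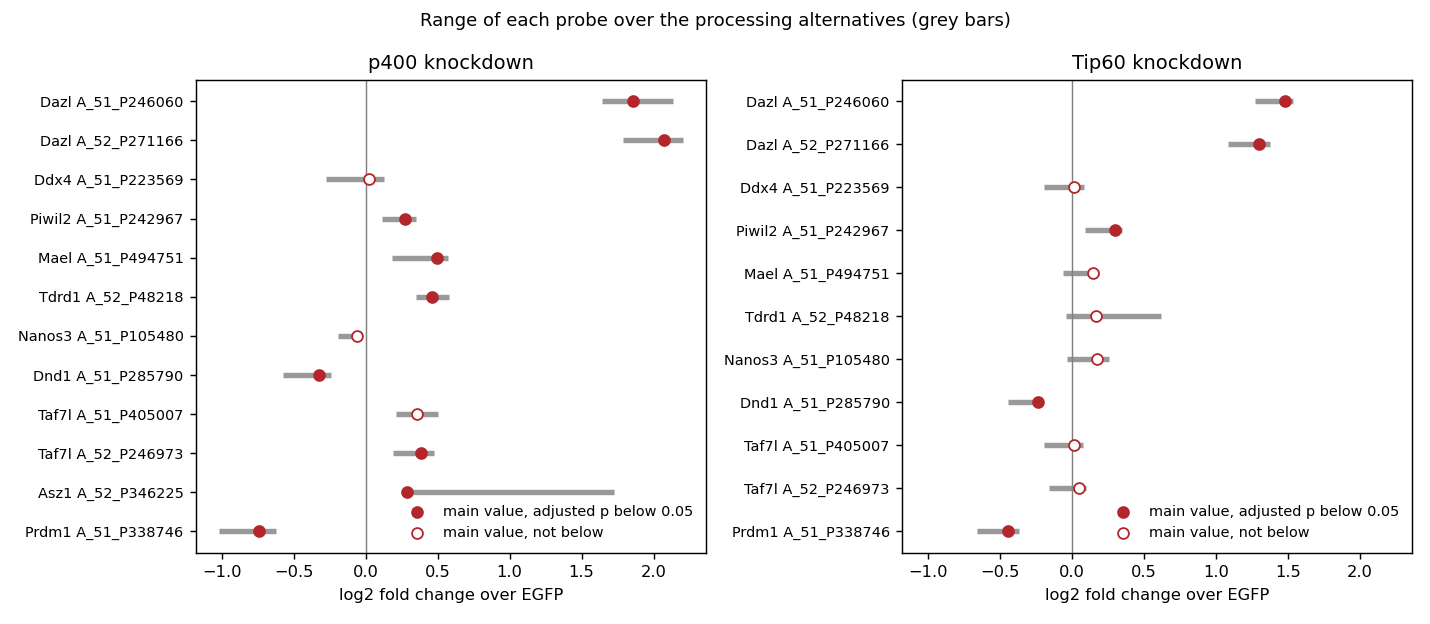
Points give the log2 fold change over EGFP of each tested probe, filled where the adjusted p was below 0.05, and grey bars the range over the processing alternatives. Both Dazl probes stayed above 1 in either knockdown, and the grey bars of Ddx4 cross 0 in both.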

How the data were processed

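The 12 arrays (Agilent design 014868) were scanned into spot intensity values by Feature Extraction 9.5.1.1, per the file headers, and the deposited LogRatio column holds the log10 ratio of Cy5 over Cy3. The series matrix, also deposited, has log2 values, and how they were normalised is not given in the sources used here. Its p400 columns had medians of 0 to 0.01 and its single-colour columns of 7.26 to 7.27, and the sign of its p400 columns, set against LogRatio, followed the dyes in the labels.

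On the p400 arrays the background was removed from the spot means with normexp (offset 50) and dyes were balanced by loess with control spots at weight 0. The limma 3.58.1 model (R 4.3.3) had a knockdown and a dye coefficient. Single-colour levels are log2 processed signals relative to the 75th percentile of the array, and limma compared Tip60 replicates 1, 2 and 4 with the 4 EGFP arrays. The 1639 control spots and flagged outlier spots were left out and spots of a probe averaged. Testing required a signal well above background on 3 or more arrays in knockdown or EGFP RNA, so a gene dim in EGFP RNA was tested only where bright after knockdown. P-values were two-sided, adjusted by Benjamini-Hochberg over all probes tested, with a threshold of 0.05. The difference of the effects used the summed squared standard errors and the smaller degrees of freedom. The number of arrays limits the precision. The steps were tested on simulated data.

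The members, lists and alternatives were chosen with earlier results of these data known. Named genes were all 10 members, the 3 largest rises and falls of the other germ cell genes in each comparison, the 5 nearest to Dazl, and the targeted genes. Alternatives changed the normalisation, filter, slide term, replicate block and replicates. Probe positions are on build mm7, with no annotation of that build used here.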

Additional observations from a re-analysis of the deposited data

Results flagged for a closer look

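Among 39 groups of 4 arrays examined, 1 had an array far from the others. Tdrd1 A_52_P48218 was at 1.05 on Tip60 replicate 3, against -0.87 to -0.71 on the other Tip60 arrays, a gap of 0.918 of the whole range. Chance alone would mark about 1 in 20 groups. The same value lies above the EGFP arrays (-0.98 to -0.87), on an array that the comparison left out. With that array included, the difference of this probe was 0.62 and was not called (adjusted p = 0.313 by limma).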

How the results depend on the processing

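Both Dazl probes kept their direction and call in both knockdowns under every alternative run, and Prdm1 did in p400 knockdown. The Dazl calls after p400 knockdown were nearest the threshold with arrays scaled to a common spread. There A_51_P246060 was at 1.87 ± 0.27 (adjusted p = 0.0389 by limma) and A_52_P271166 at 2.20 ± 0.41 (adjusted p = 0.0481 by limma). The member count after p400 knockdown ranged from 4 to 10 when 1 replicate was left out, and that of the other germ cell genes from 14 to 18. Between 16.5% and 30.1% of all probes were called in those fits, against 33.1% in the main fit. With arrays scaled to a common spread the latter count was 9, where 12.2% of all probes were called. After Tip60 knockdown the member count was 3 with the series matrix values and 2 within slide 2. There 19.3% and 8.85% of all probes were called, against 22.7% in the main fit. The other germ cell genes gave 11 with no filter on dim probes (8.83% of all probes) and 6 within slide 2. They gave 11 to 16 with 1 replicate left out (15.8% to 18.8% of all probes). With replicate number as a block, the member count was 2 and the other germ cell count 8, where 8.88% of all probes were called. Deviations of same-numbered samples correlated at -0.26, -0.33 and -0.12. Same-numbered samples always lay on different slides, and each Tip60 array was most like an EGFP array of its own slide. These correlations therefore cannot tell whether the numbers pair the samples. Slide 3 held 1 Tip60 array in the comparison, so no within-slide test was run there. The difference between knockdowns was called for 2 probes with Satterthwaite degrees of freedom and for 2 with the series matrix values, where 13.2% and 7.35% of all probes were called.

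Values near 0 turned sign. After p400 knockdown Ddx4 was -0.274 with array median centring, and between -0.0793 and 0.131 with 1 replicate left out. After Tip60 knockdown, scaling on the array median lowered all probes alike (median over all probes -0.21), and this offset alone put Ddx4 at -0.193, Mael -0.0601, Tdrd1 -0.0428, Nanos3 -0.0346 and the Taf7l probes -0.197 and -0.162. Nanos3 was -0.0204 with quantile normalisation and -0.005 with the series matrix values, and Taf7l A_51_P405007 was -0.0315 and -0.0592. Adding a slide term gave -0.0201 for this Taf7l probe, and slide 2 alone gave -0.0521. With Tip60 replicate 3, Ddx4 was -0.0114 and Taf7l A_52_P246973 -0.00549. With 1 replicate left out, Ddx4 ranged from -0.0488 to 0.0868, Taf7l A_51_P405007 from -0.0483 to 0.0621 and Taf7l A_52_P246973 from -0.0181 to 0.101. The Piwil2 difference between knockdowns was 0.178 with the series matrix values and 0.0079 with Tip60 replicate 3, where that of Tdrd1 was -0.155. The cause of the turns outside that offset was not tested.

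The Asz1 value after p400 knockdown ranged from 0.26 to 1.73. Its probe and Tdrd1 A_51_P478238 lay near background, which limits what these arrays show of them.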
